A study of Mus musculus with 6 samples.

Results

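Amino acid transporters are the membrane proteins through which cells take up, release and exchange amino acids. The set described here was chosen with earlier results of these data known. It holds 10 genes for transporters of large neutral, small neutral, cationic and related amino acids: Slc7a5, Slc3a2, Slc7a8, Slc1a4, Slc1a5, Slc7a1, Slc38a1, Slc38a2, Slc6a6 and Slc6a8. Of these, 9 genes were measured, by 19 probe sets, out of 17097 genes and 45141 probe sets on the arrays. Slc1a4, a sodium-dependent exchanger of alanine, serine and cysteine, was the exception: the platform annotation used here gives it no probe set that names a single gene, and no value is given for it.

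The measurements compared EpCAM+ plastic cancer cells, sorted from 3 independent moderately or poorly differentiated squamous cell carcinomas of mouse skin (MD/PD-SCCs), with full epithelial cancer cells, sorted from 3 independent well-differentiated ones (WD-SCCs). Both groups carried the surface phenotype α6-integrin+CD45-EpCAM+ after depletion of red blood cells and endothelial cells, and the labels name no treatment. According to the methods of the study, its mouse cancer cells came from spontaneous or DMBA/TPA-induced tumors of K14-HPV16 Tg/+ mice, in which the keratin 14 promoter drives the viral early region in basal keratinocytes, and its progression model passed WD-SCC lineages through athymic nude mice, which lack mature T cells. The methods also state that generated tumors were implanted into the back skin of young male mice, and they name a WD-SCC lineage for the progression model. They do not tie a lineage, host, age or sex to each array, so plastic state, tumor grade and lineage cannot be told apart. RNA of each sorted sample (10 ng) was amplified before hybridization to an Affymetrix expression array. Values below are normalized log2 values, listed for replicates 1 to 3 of each group, and every log2 fold change is EpCAM+ plastic minus full epithelial.

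Slc3a2 encodes CD98hc (4F2hc), the heavy chain that carries light chains such as LAT1 (Slc7a5) and LAT2 (Slc7a8) to the plasma membrane. LAT1 exchanges intracellular amino acids for leucine and other large neutral ones, whereas CAT-1 (Slc7a1) takes up arginine, lysine and ornithine without a partner chain. Glutamine enters through ASCT2 (Slc1a5) and the sodium-coupled carriers SNAT1 and SNAT2 (Slc38a1, Slc38a2), and leucine and arginine inside the cell are sensed by the machinery that activates the growth kinase mTORC1. CD98hc also binds integrin β chains, and in epidermis it is most abundant in the dividing basal layer.

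The cationic amino acid transporter gene Slc7a1 and the heavy chain gene Slc3a2 were higher in EpCAM+ plastic cells, and no other member passed the test. Among the 19 member probe sets, 4 rose (3 of Slc7a1 and the only 1 of Slc3a2), none fell and 15 did not pass an adjusted p of 0.05 (limma moderated test, Benjamini-Hochberg adjustment over all probe sets). Over all probe sets on the array 4.11% rose and 1.87% fell by the same rule. By an unadjusted p under 0.05, 7 member probe sets were higher and 0 were lower, where 12.6% and 8.66% of all probe sets were. Counted by gene, each through its brightest probe set, 2 of 9 members rose and 0 fell, against 5.30% and 1.91% of all genes, and by an unadjusted p the member counts were again 2 and 0, against 14.9% and 9.01% of all genes. The median log2 fold change was 0.40 over the member probe sets and 0.32 over the member genes, against -0.03 over all probe sets and -0.02 over all genes. Because the members were chosen with earlier results of these data known, such comparisons with the whole array are descriptions only. They are also not matched for brightness. Of the 19 member probe sets 14 had a mean above the background level defined below, against 16270 of all 45141. In a test limited to probe sets above that level, 4 of 14 member probe sets rose, against 1794 of all 16270. The median log2 fold change of those 16270 was 0.08. The groups did not overlap at 7 member probe sets that were higher in EpCAM+ plastic cells and at 1 that was lower, where 13.5% and 13.2% of all probe sets separated in those directions. A log2 fold change of at least 1 on top of the adjusted p left 2 member probe sets and 1 member gene, both of Slc7a1, where 2.42% of all probe sets and 2.83% of all genes passed. With 3 arrays a group, single arrays moved these counts: leaving out EpCAM+ plastic replicate 3 gave 2 probe sets and leaving out full epithelial replicate 2 gave 6. The member genes that passed numbered 1 when EpCAM+ plastic replicate 1 or 3 was left out and 3 when full epithelial replicate 2 was.

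**Figure D1:**
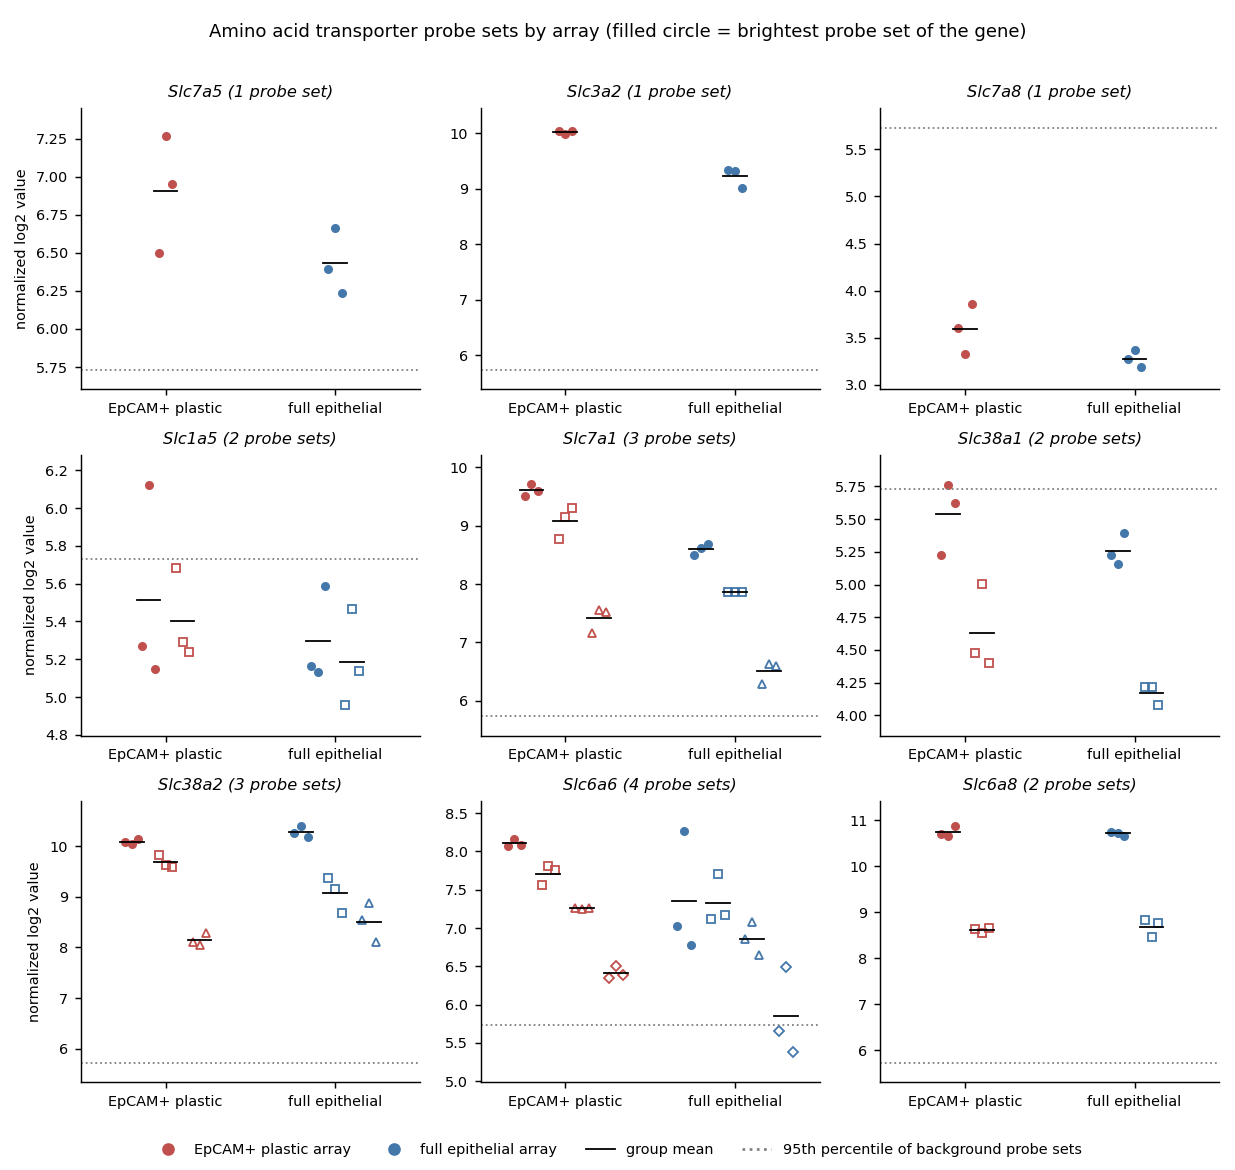
Normalized log2 value of each probe set of the 9 measured members (y axis) in the 3 EpCAM+ plastic arrays (red, left) and the 3 full epithelial arrays (blue, right), each symbol 1 array and each bar a group mean. Filled circles are the brightest probe set of a gene, and the dotted line is the background level of 5.73. Slc3a2 and the 3 probe sets of Slc7a1 separate without overlap, whereas all values of Slc7a8 lie below the line.

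Brightness limits what could be measured for part of the set. The background level was taken as the 95th percentile of 23 control probe sets built without a mouse target, a log2 value of 5.73. Of the 19 member probe sets 14 had a mean above it, covering 6 of the 9 genes. Those of Slc7a8, Slc1a5 and Slc38a1 did not, so their values carry little information about the transcripts. Probe sets of different genes bind with different efficiency, so levels are compared here only between groups and never between genes.

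The promoter sequences of Slc7a1 and Slc3a2 are shown because these are the 2 genes that rose. They are the 250 bases before the annotated start from RefSeq on GRCm38.p6, written 5′ to 3′ on the coding strand, which is the minus strand for both genes. For Slc7a1 the table gives 2 starts, and the upstream one is printed (chr5:148399905-148400154). Slc3a2 has 1 (chr19:8713898-8714147). That Slc3a2 window lies inside the span annotated for the gene (chr19:8706882-8723369), so it is not upstream of the whole locus. Capitals mark matches, on either strand, to the GC box core GGGCGG or to the antioxidant response element core TGACNNNGC.
Slc7a1: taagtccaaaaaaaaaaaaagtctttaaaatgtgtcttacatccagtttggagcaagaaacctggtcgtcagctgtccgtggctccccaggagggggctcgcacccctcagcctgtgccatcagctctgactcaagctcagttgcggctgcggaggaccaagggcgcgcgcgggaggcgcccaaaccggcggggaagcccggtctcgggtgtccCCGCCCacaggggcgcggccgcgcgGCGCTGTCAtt
Slc3a2: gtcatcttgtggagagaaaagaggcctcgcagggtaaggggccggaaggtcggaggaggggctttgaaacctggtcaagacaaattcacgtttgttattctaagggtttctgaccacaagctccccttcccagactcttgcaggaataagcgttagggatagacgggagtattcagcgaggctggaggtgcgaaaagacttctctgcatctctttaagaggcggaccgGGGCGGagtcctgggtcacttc
The Slc7a1 promoter held 62.4% G and C and 21 CpG dinucleotides, with 1 GGGCGG match 36 to 31 bases before the start and 1 TGACNNNGC match 11 to 3 bases before it, both on the opposite strand. The Slc3a2 promoter held 53.6% G and C, 11 CpG dinucleotides and 1 GGGCGG match 22 to 17 bases before its start. Over all 32851 promoters of the same length, the median was 52.4% G and C with 6 CpG dinucleotides, 32.7% held GGGCGG and 10.2% held TGACNNNGC. The second Slc7a1 start (chr5:148392816-148393065) had 50.0% G and C, 5 CpG dinucleotides and no match. The letters TGATGNAA, the core of the element through which ATF4 acts on genes of the amino acid response, occurred in 3.45% of all promoters and in none of the 6 member promoters in the table, which belong to 5 members (Slc7a1, Slc3a2, Slc38a2, Slc7a8 and Slc1a4). A match or its absence in such a window is a description of letters only.

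Slc3a2, the shared heavy chain (chr19:8706882-8723369, GRCm38.p6), was read by a single probe set at 10.05, 9.98 and 10.04 in EpCAM+ plastic cells, against 9.33, 9.32 and 9.01 in full epithelial cells. All 3 EpCAM+ plastic arrays lay above all 3 full epithelial arrays. The means were 10.02 ± 0.04 in EpCAM+ plastic cells and 9.22 ± 0.18 in full epithelial cells (SD, n = 3 each), a log2 fold change of 0.80 (SE 0.11, 95% confidence interval 0.53 to 1.07, 1.74-fold, limma adjusted p = 0.0151). The call rested on single arrays: the log2 fold change was 0.79 without EpCAM+ plastic replicate 1 (adjusted p = 0.0662) and 0.79 without EpCAM+ plastic replicate 3 (adjusted p = 0.0554). Its chromosome held the largest share of risen genes in the same comparison. On chromosome 19, 100 of 568 measured genes rose (17.6%) and 1 fell, with a median log2 fold change of 0.11, and of the 24 measured genes nearest to Slc3a2, 8 rose and 0 fell, with a median of 0.14. The log2 fold change of Slc3a2 exceeded the chromosome median by 0.70, and the part of the chromosome in its rise was not tested.

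The LAT1 light chain gene Slc7a5 (chr8:121881146-121907686) gave 6.50, 7.27 and 6.95 in EpCAM+ plastic cells, against 6.40, 6.66 and 6.23 in full epithelial cells. The groups overlapped, since EpCAM+ plastic replicate 1 lay below full epithelial replicate 2. Means of 6.90 ± 0.39 in EpCAM+ plastic cells and 6.43 ± 0.22 in full epithelial cells (SD, n = 3 each) gave a log2 fold change of 0.47 (SE 0.21, 95% confidence interval -0.03 to 0.98, limma adjusted p = 0.259), so neither no change nor a change as large as that of Slc3a2 lay outside the interval. Without EpCAM+ plastic replicate 2, the highest array, the log2 fold change was 0.29. For the LAT2 light chain gene Slc7a8, on chromosome 14, the values were 3.60, 3.33 and 3.86 in EpCAM+ plastic cells, against 3.27, 3.37 and 3.19 in full epithelial cells. These overlap, lie below the background level, and gave 0.32 (SE 0.15, 95% confidence interval -0.03 to 0.67, adjusted p = 0.270).

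Over the 6 arrays, the genes whose values followed Slc3a2 most closely were Noc4l (Pearson r = 0.998), Nmd3 (r = 0.997) and Ints6 (r = 0.996), among 7734 genes above background. Noc4l and Nmd3 act in ribosome assembly and export, and Ints6 is a subunit of the Integrator complex. Slc7a5 was followed most closely by Pde7a (r = 0.982), a cyclic AMP phosphodiesterase, Sephs1 (r = 0.981), a selenophosphate synthetase homolog, and Ppp2r1b (r = 0.980), a scaffold subunit of protein phosphatase 2A. Noc4l, Nmd3 and Ints6 themselves rose, by 0.86, 0.99 and 1.01 (limma adjusted p = 0.0119, 0.0126 and 0.0153). With 6 arrays in 2 groups, a high r with Slc3a2 therefore includes the difference between the groups. Pde7a, Sephs1 and Ppp2r1b did not pass the test. Of the 7734 genes, 236 had r above 0.95 with Slc3a2 and 21 with Slc7a5.

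Slc7a1, the arginine and lysine carrier CAT-1 (chr5:148327410-148399904), was the member with the largest log2 fold changes, and all 3 of its probe sets rose. Its brightest probe set gave 9.51, 9.72 and 9.59 in EpCAM+ plastic cells, against 8.49, 8.62 and 8.68 in full epithelial cells. The means were 9.61 ± 0.10 in EpCAM+ plastic cells and 8.60 ± 0.10 in full epithelial cells (SD, n = 3 each), a log2 fold change of 1.01 (SE 0.10, 95% confidence interval 0.77 to 1.25, 2.01-fold, limma adjusted p = 0.0074). On the second probe set the values were 8.78, 9.14 and 9.30 in EpCAM+ plastic cells, against 7.86, 7.86 and 7.86 in full epithelial cells. That is a log2 fold change of 1.22 (SE 0.14, 95% confidence interval 0.88 to 1.56, 2.33-fold, limma adjusted p = 0.0104). The groups were separate at both, and both calls held with any single array left out, at an adjusted p of at most 0.0320 for the brightest and 0.0377 for the second. The third and dimmest probe set read 7.16, 7.55 and 7.53 in EpCAM+ plastic cells, against 6.29, 6.63 and 6.60 in full epithelial cells. Its groups were separate too, with a log2 fold change of 0.91 (SE 0.15, 95% confidence interval 0.55 to 1.26, 1.87-fold, limma adjusted p = 0.0233). That call was lost when EpCAM+ plastic replicate 3 (log2 fold change 0.85, adjusted p = 0.0786), full epithelial replicate 1 (0.80, adjusted p = 0.0649) or full epithelial replicate 3 (0.95, adjusted p = 0.0555) was left out. On chromosome 5, 70 of 1050 measured genes rose (6.67%) and 12 fell, with a median log2 fold change of 0.05, and of the 24 genes nearest to Slc7a1, 1 rose and 0 fell.

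**Figure D2:**
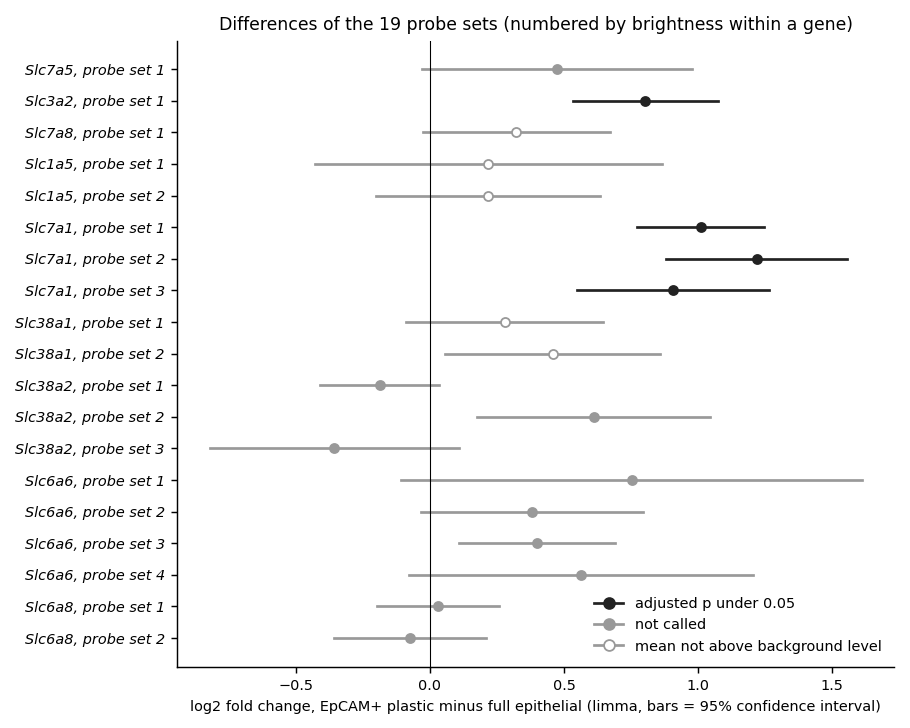
Log2 fold change, EpCAM+ plastic minus full epithelial (x axis), of each of the 19 member probe sets (rows), with its 95% confidence interval as a bar and the 4 probe sets past an adjusted p of 0.05 drawn in black (open circles, mean not above background). The intervals of the 3 Slc7a1 probe sets and of Slc3a2 lie wholly above 0.5, and the 3 Slc38a2 estimates fall on both sides of 0.

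**Figure D3:**
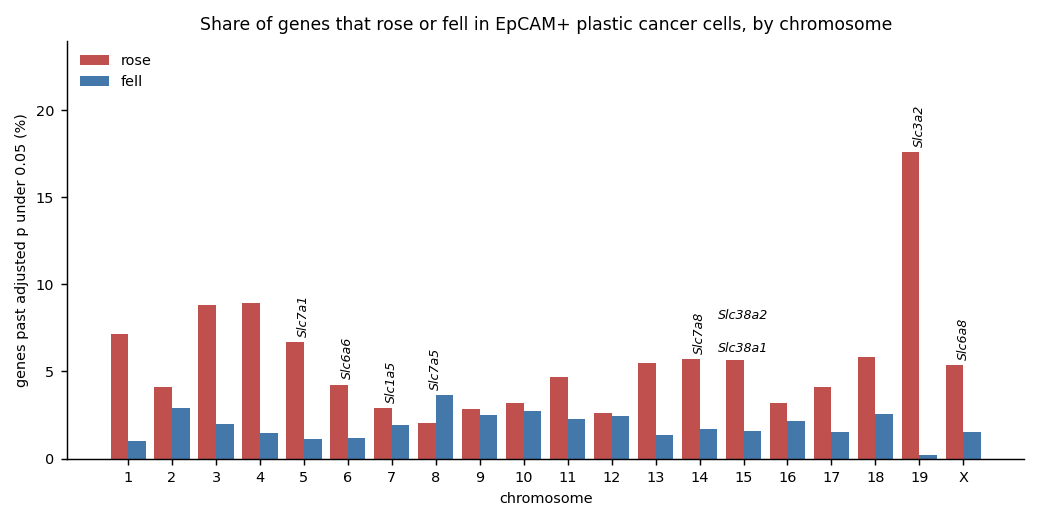
Percentage of measured genes on each chromosome (x axis) that rose (red) or fell (blue) in EpCAM+ plastic cells at an adjusted p under 0.05, with the measured members named above their chromosome. Chromosome 19, which carries Slc3a2, reaches 17.6% risen, and chromosome 5, which carries Slc7a1, 6.67%.

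Slc1a5, on chromosome 7, encodes ASCT2, an exchanger that brings glutamine into the cell. Its brighter probe set gave 5.27, 6.12 and 5.15 in EpCAM+ plastic cells, against 5.17, 5.13 and 5.59 in full epithelial cells, and the other gave 5.68, 5.29 and 5.24 in EpCAM+ plastic cells, against 4.96, 5.47 and 5.14 in full epithelial cells. Both pairs of groups overlapped below or around the background level. The log2 fold changes were 0.22 for each (SE 0.27 and 0.18, 95% confidence intervals -0.43 to 0.86 and -0.20 to 0.63, adjusted p = 0.712 and 0.548). Without EpCAM+ plastic replicate 2 the difference at the brighter probe set turned to -0.09. A difference in Slc1a5 was not detectable at this signal.

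Among the sodium-coupled neutral amino acid carriers, Slc38a1 (SNAT1), on chromosome 15, was near background. Its brighter probe set gave 5.23, 5.76 and 5.62 in EpCAM+ plastic cells, against 5.22, 5.16 and 5.39 in full epithelial cells, and these groups overlapped (0.28, SE 0.15, adjusted p = 0.367). The dimmer one gave 4.48, 5.00 and 4.40 in EpCAM+ plastic cells, against 4.22, 4.21 and 4.08 in full epithelial cells. There the groups were separate, with EpCAM+ plastic cells higher, but the difference did not pass the test (0.46, SE 0.17, 95% confidence interval 0.06 to 0.86, adjusted p = 0.180).

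Slc38a2 (SNAT2, chr15:96687392-96699728), whose product is known to be made in larger amounts when amino acids run short, was bright on 3 probe sets that did not move together. The brightest gave 10.08, 10.04 and 10.13 in EpCAM+ plastic cells, against 10.25, 10.39 and 10.17 in full epithelial cells, with every EpCAM+ plastic array the lower (-0.19, SE 0.09, 95% confidence interval -0.41 to 0.04, adjusted p = 0.316). The second gave 9.83, 9.63 and 9.59 in EpCAM+ plastic cells, against 9.38, 9.15 and 8.69 in full epithelial cells, with every EpCAM+ plastic array the higher (0.61, SE 0.18, 95% confidence interval 0.18 to 1.05, adjusted p = 0.111). The third gave 8.11, 8.05 and 8.28 in EpCAM+ plastic cells, against 8.54, 8.87 and 8.10 in full epithelial cells, with overlap (-0.36, SE 0.19, 95% confidence interval -0.82 to 0.11, adjusted p = 0.360). No Slc38a2 probe set passed the test, so the gene has no called direction. Within each array, the second probe set minus the brightest was -0.25, -0.42 and -0.54 in EpCAM+ plastic cells and -0.88, -1.24 and -1.48 in full epithelial cells, a difference of 0.80. The second minus the third was 1.72, 1.58 and 1.30 in EpCAM+ plastic cells and 0.84, 0.28 and 0.59 in full epithelial cells, a difference of 0.97. Neither set of values overlapped, and an exact two-sided permutation test gave p = 0.1 for each of these 2 differences, the smallest value that 3 arrays against 3 can give. The 2 contrasts were chosen after the values were seen. The brightest and the third probe set were designed on the same transcript record and the second on another, and which transcripts they bind was not tested.

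The taurine transporter gene Slc6a6 (TauT), on chromosome 6, was read by 4 probe sets, all above background and all with a positive log2 fold change that did not pass the test. The brightest gave 8.08, 8.16 and 8.09 in EpCAM+ plastic cells, against 7.03, 8.26 and 6.78 in full epithelial cells. Full epithelial replicate 2 was as high as the EpCAM+ plastic arrays, so the groups overlapped (0.75, SE 0.36, 95% confidence interval -0.11 to 1.61, adjusted p = 0.296). The dimmest showed the same arrangement, at 6.35, 6.50 and 6.38 in EpCAM+ plastic cells against 5.66, 6.50 and 5.39 in full epithelial cells (0.56, SE 0.27, adjusted p = 0.295). Without full epithelial replicate 2 the brightest and the dimmest passed, at 1.21 (adjusted p = 0.0189) and 0.89 (adjusted p = 0.0309). That array has no fault known from its labels, and its place among the full epithelial samples was kept. Of the remaining Slc6a6 probe sets, the second gave 7.56, 7.81 and 7.76 in EpCAM+ plastic cells and 7.12, 7.71 and 7.17 in full epithelial cells, with overlap (0.38, SE 0.17, adjusted p = 0.270). The third gave 7.27, 7.24 and 7.27 in EpCAM+ plastic cells and 6.86, 7.07 and 6.65 in full epithelial cells, without overlap (0.40, SE 0.12, 95% confidence interval 0.11 to 0.69, adjusted p = 0.117).

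Slc6a8, on the X chromosome, encodes the creatine transporter and had the smallest differences of the set. Its brighter probe set gave 10.70, 10.66 and 10.88 in EpCAM+ plastic cells, against 10.76, 10.73 and 10.67 in full epithelial cells, and the other gave 8.63, 8.55 and 8.65 in EpCAM+ plastic cells, against 8.84, 8.46 and 8.76 in full epithelial cells. The groups overlapped at both. The log2 fold changes of 0.03 (95% confidence interval -0.20 to 0.26, adjusted p = 0.898) and -0.07 (95% confidence interval -0.36 to 0.21, adjusted p = 0.784) did not pass the test. The signs turned, to -0.04 and 0.0029, without EpCAM+ plastic replicate 3 at the brighter probe set and without full epithelial replicate 1 at the dimmer one.

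Markers of other cell types were examined because the values come from sorted but mixed suspensions, in which fewer cells of a type and less RNA per cell cannot be told apart. The gating antigens were present in both groups: Epcam gave 11.04, 10.79 and 11.15 in EpCAM+ plastic cells and 10.66, 10.97 and 10.46 in full epithelial cells, and the summed linear level of 6 keratinocyte and sort markers ranged from 12800 to 14150 in EpCAM+ plastic arrays and from 12170 to 13150 in full epithelial arrays. Ptprc, which encodes CD45, averaged 2.94 in EpCAM+ plastic cells and 2.97 in full epithelial cells, below the background level. Immune markers, of which 8 of 11 were not above the background level, summed to between 484 and 652 in EpCAM+ plastic arrays and between 645 and 950 in full epithelial arrays. Fibroblast markers (8 of 10 not above it) summed to between 295 and 944 in EpCAM+ plastic arrays and between 393 and 575 in full epithelial arrays. All 8 endothelial and all 8 muscle markers were at background, with sums of 159 to 210 and 175 to 193 in EpCAM+ plastic arrays, against 168 to 174 and 195 to 259 in full epithelial arrays. The 6 melanocyte markers, 5 of them not above background, summed to between 167 and 168 in EpCAM+ plastic arrays and between 170 and 198 in full epithelial arrays. The highest fibroblast sum, 944, belonged to EpCAM+ plastic replicate 2. It was also the highest array for Slc7a5, the brightest and the dimmest probe set of Slc7a1 and the brighter one of Slc1a5. The same held for both probe sets of Slc38a1 and for the second and the dimmest of Slc6a6. At every remaining member probe set another array was the highest, and for Slc3a2 this replicate was the lowest EpCAM+ plastic array (9.98). The 4 adipocyte markers, 3 of them not above background, summed to between 68.8 and 322 in EpCAM+ plastic arrays and between 1461 and 1761 in full epithelial arrays. The fatty acid binding protein gene Fabp4 gave 8.05, 7.83 and 3.75 in EpCAM+ plastic cells, against 10.73, 10.63 and 10.44 in full epithelial cells, while the fat cell hormone gene Adipoq averaged 3.55 in EpCAM+ plastic cells and 3.62 in full epithelial cells, below the background level. No gene of these 7 lists passed the test, and the part of other cell types in the member values was not tested. The markers given singly were picked as gating antigens or after their values were seen.

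The remaining genes of amino acid uptake and use were grouped into lists by function, to be read against the 5.30% of all genes that rose and the 1.91% that fell. These percentages are not matched for brightness, since 7735 of all 17097 genes were above the background level. Above it were 23 of 28 response genes, 17 of 17 synthetases, 22 of 29 mTORC1 genes and 14 of 16 glutamine enzymes. So were 10 of 12 arginine and polyamine enzymes, 5 of 17 branched-chain enzymes and 1 of 9 taurine and creatine enzymes. Of 48 other amino acid transporters 45 were measured, 9 of them above the background level, with 1 that rose, 0 that fell and a median log2 fold change of -0.11 (by an unadjusted p, 4 were higher and 8 lower). The riser was Slc38a7, a carrier of glutamine and asparagine at the lysosome, at 6.34, 6.44 and 6.24 in EpCAM+ plastic cells, against 5.56, 5.81 and 5.69 in full epithelial cells (0.65, SE 0.11, adjusted p = 0.0221). Its full epithelial mean of 5.69 lay under the background level of 5.73. Its groups were separate, but no transporter of that list passed without EpCAM+ plastic replicate 1, EpCAM+ plastic replicate 3 or full epithelial replicate 1. Without EpCAM+ plastic replicate 2, 1 rose and 1 fell. The other light chains that pair with the Slc3a2 heavy chain, named here after their values were seen, did not pass and had values of both signs. Slc7a6 gave 0.88 on its brighter probe set (adjusted p = 0.180) and 0.19 on the other. The cystine carrier gene Slc7a11 gave 0.48 (adjusted p = 0.648) and -0.26 on its 2 probe sets, Slc7a7 gave 0.04 (adjusted p = 0.869) and Slc7a10 gave -0.11 (adjusted p = 0.598), and of these probe sets only the brighter one of Slc7a6 was above background.

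The lists of the amino acid response and of mTORC1 cover the signaling that responds to amino acid supply. Of 28 measured genes of the amino acid response and serine synthesis, 2 rose and 1 fell, with a median of 0.02, a count close to the 5.30% risen and 1.91% fallen of all genes. By an unadjusted p under 0.05 (limma), 7 were higher and 2 lower, where 14.9% and 9.01% of all genes were. Trib3, a pseudokinase gene induced by ATF4, gave 7.87, 8.69 and 7.92 in EpCAM+ plastic cells, against 6.94, 6.61 and 6.88 in full epithelial cells (1.35, SE 0.23, adjusted p = 0.0251). Aldh18a1, whose product starts proline synthesis from glutamate, rose by 0.50 on its brighter probe set (adjusted p = 0.0416) and by 1.51 on the other (adjusted p = 0.0065). Ddit4, which encodes an inhibitor of mTORC1, gave 9.04, 8.95 and 9.43 in EpCAM+ plastic cells, against 10.00, 10.10 and 10.12 in full epithelial cells (-0.94, SE 0.14, adjusted p = 0.0175). All 3 genes separated without overlap on their brightest probe sets. Other genes of the response, named after their values were seen, did not pass. Atf4 itself had 0.56 on its brighter probe set (adjusted p = 0.0921) and -0.07 on the other (adjusted p = 0.823). Ddit3 had 0.63 (adjusted p = 0.0501) and the asparagine synthetase gene Asns had 0.21 (adjusted p = 0.669).

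Of 29 measured mTORC1 and amino acid sensing genes 4 rose and 0 fell, with a median of 0.15 (by an unadjusted p, 7 were higher and 0 lower). They were Rragc, a Rag GTPase (0.62, adjusted p = 0.0223), Lamtor3, a subunit of the Ragulator scaffold (0.50, adjusted p = 0.0365), Flcn, the folliculin gene (1.04, adjusted p = 0.0398), and Rptor, the raptor subunit of mTORC1 (0.89, adjusted p = 0.0464, on 1 of its 2 probe sets). The kinase gene Mtor, picked out for its role and not by the rule, had -0.11 (adjusted p = 0.710). Of 17 measured cytosolic aminoacyl-tRNA synthetases, which charge tRNAs with amino acids, 2 rose and 0 fell, with a median of 0.26 (8 higher and 1 lower by an unadjusted p). These were the isoleucine enzyme gene Iars (1.14, adjusted p = 0.0125, both probe sets) and the glutamate and proline enzyme gene Eprs (0.61, adjusted p = 0.0341, 2 of 4 probe sets).

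Among 16 measured enzymes of glutamine, glutamate and aspartate metabolism 5 rose and 1 fell, with a median of 0.28 (6 higher and 2 lower by an unadjusted p). The nucleotide synthesis enzymes Gmps (0.84, adjusted p = 0.0246) and Ctps (0.62, adjusted p = 0.0345), which use glutamine nitrogen, rose. So did ornithine aminotransferase, Oat (0.83, adjusted p = 0.0231), Aldh18a1, which both lists hold, and Ppat (1.51, adjusted p = 0.0370), the first enzyme of purine synthesis, picked out later too. The full epithelial mean of Ppat, 5.18, lay under the background level of 5.73, and only the brighter of its 2 probe sets is given. Gpt, an alanine aminotransferase gene, gave 6.58, 6.54 and 6.55 in EpCAM+ plastic cells, against 7.12, 7.22 and 6.96 in full epithelial cells (-0.54, adjusted p = 0.0276). No gene passed among 17 enzymes of branched-chain amino acid breakdown, 12 of arginine and polyamine metabolism or 9 of taurine and creatine metabolism. These pathways include compounds that LAT1, CAT-1, TauT and the creatine transporter carry. At an unadjusted p under 0.05 these lists held 1 higher and 1 lower, 1 higher and 2 lower, and 0 higher and 1 lower (limma), with medians of -0.02, -0.08 and -0.08. The polyamine enzyme gene Odc1 was picked out later, at 0.08 (adjusted p = 0.913).

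**Figure D4:**
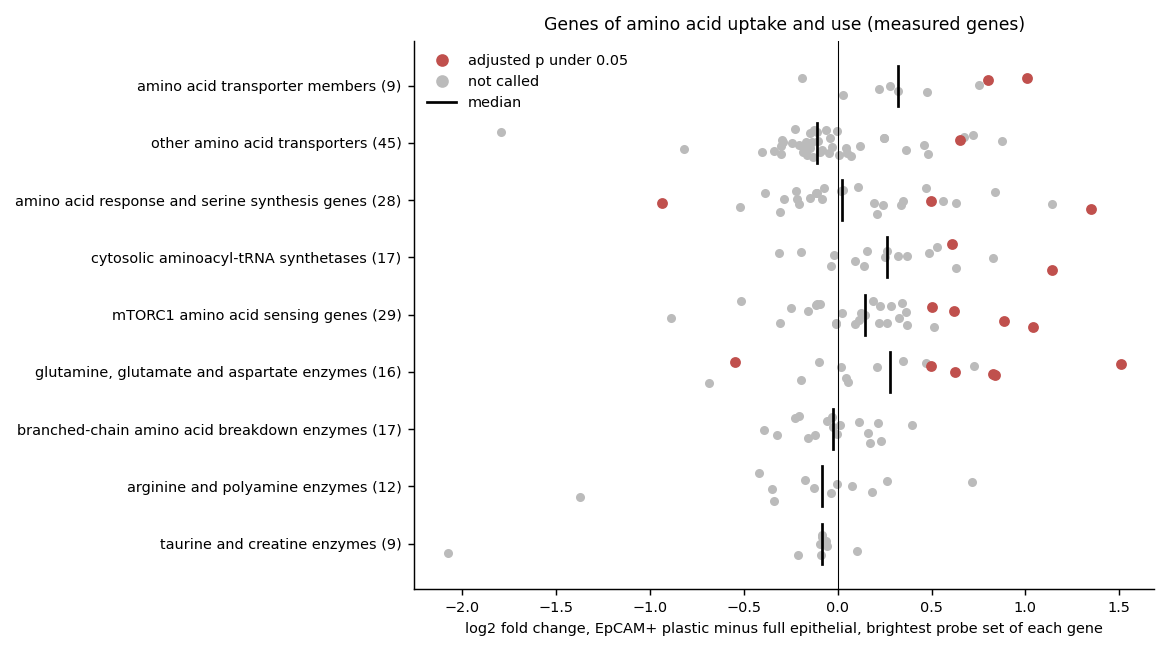
Log2 fold change, EpCAM+ plastic minus full epithelial (x axis), of every measured gene in the member set and the 8 other lists of amino acid uptake and use (rows), each point 1 gene by its brightest probe set. Red points passed an adjusted p of 0.05 and black bars are medians, which run from -0.11 for the other transporters to 0.32 for the members.

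The counts of these lists depended on single arrays. Genes of the amino acid response that passed numbered 3 with all arrays. Dropping EpCAM+ plastic replicate 1, full epithelial replicate 1 or full epithelial replicate 2 gave 0, and dropping replicate 3 of either group gave 1. For the mTORC1 list the count of 4 became 0 when EpCAM+ plastic replicate 1 or full epithelial replicate 3 was dropped. It was 1 when EpCAM+ plastic replicate 3 or full epithelial replicate 1 was dropped. Without EpCAM+ plastic replicate 2, 2 of the list rose and 0 fell. Without full epithelial replicate 2, 1 rose and 1 fell. For the glutamine list the count of 6 became 0 without full epithelial replicate 1 and 3 without replicate 2 of either group. It was 1 when EpCAM+ plastic replicate 1, EpCAM+ plastic replicate 3 or full epithelial replicate 3 was left out. For the synthetases the count of 2 became 1 when any array but full epithelial replicate 2 was left out. Without EpCAM+ plastic replicate 2, 1 arginine and polyamine enzyme and 1 taurine and creatine enzyme fell, where 0 of either passed with all arrays.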

How the data were processed

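Gene expression was measured on 6 Affymetrix mouse arrays, 3 of EpCAM+ plastic and 3 of full epithelial cancer cells, each from an independent tumor per the series' design text. The authors deposited log2 values per probe set, made by RMA per the submitters' processing notes. The sources used here do not name the RMA version. RMA corrects background, normalizes quantiles, summarizes the probes of a set into 1 value, compresses low signals and leaves no depth, so the number of arrays limits precision. The 2 deposited tables were identical.

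Probe sets were named through the platform annotation with symbols updated by gene ID (of 45141, 28898 name 1 gene, 551 several, and 15692 are not listed). All 45141 were fitted in limma 3.58.1 (R 4.3.3; lmFit, eBayes), with Benjamini-Hochberg adjustment and a threshold of 0.05. Genes were represented by their single-gene probe set of highest mean. The script was tested on simulated data. Named genes were all members, up to 4 genes of each other list past the threshold with the smallest p, and the 3 genes most correlated with Slc3a2 and Slc7a5; exceptions are stated. The members and lists were chosen with earlier results of these data known. Promoters came from RefSeq tables. Alternatives covered normalization, centering, a background filter, an intensity trend, array weights, the replicate block, probe set choice, a fold minimum and leaving out each array.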

Additional observations from a re-analysis of the deposited data

How the results depend on the processing

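Quantile normalization, array centering, the background filter, the intensity trend and array weights each left 4 member probe sets and 2 member genes past the threshold. A log2 fold change minimum of 1 left 2 probe sets and 1 gene, Slc7a1. Leaving out single arrays gave 2 to 6 probe sets and 1 to 3 genes. Signs turned only for the brighter Slc1a5 probe set (-0.086 to 0.40 over the left-out arrays) and for Slc6a8 (-0.038 to 0.074 and -0.18 to 0.0029). Over all probe sets, 2699 passed, against 576, 2627 and 920 without EpCAM+ plastic replicates 1 to 3 and 1014, 1691 and 1486 without full epithelial replicates 1 to 3, and a second quantile normalization moved the share of calls that rose to 56.5%, against 68.8%. Of the other lists, the glutamine enzymes had 3 calls after a second quantile normalization and 3 with the intensity trend, against 6, and the amino acid response 5 with the background filter, against 3. The synthetases had 1 call with the intensity trend and 1 with all probe sets of a gene averaged, against 2. The other transporters had 2 with array weights and 2 with averaging, each time 1 that rose and 1 that fell, against 1. The taurine and creatine enzymes had 1 that fell with the filter, the trend or averaging, against 0. The cause of these changes was not tested. Slc7a8, Slc1a5 and Slc38a1 were limited by signal near background.

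Replicate numbers did not pair the arrays (correlations of same-numbered deviations -0.18, -0.37 and -0.01). With the replicate block, 3 member probe sets and 1 member gene passed (Slc3a2 had an adjusted p of 0.0648), and 483 probe sets in all. Of the lists, 1 synthetase and 1 glutamine enzyme passed with it, and 0 genes of the amino acid response, of mTORC1 sensing or of the other transporters.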

Other observations

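Among the other amino acid transporters, all 12 measured relatives of Slc6a6 and Slc6a8 in the Slc6 family had a negative log2 fold change, with a median of -0.20, although 0 passed the limma test (0 higher and 3 lower by an unadjusted p) and 2 of 12 were above the background level. Of all genes, 54.3% had a negative log2 fold change, a share that mixes genes above and below the background level. Over probe sets above that level the median was 0.08, against -0.03 over all probe sets. The lowest value belonged to Slc6a20a, a proline carrier gene, at -1.80 (adjusted p = 0.132). Slc6a20a gave 3.12, 3.13 and 3.08 in EpCAM+ plastic cells, against 6.36, 4.48 and 3.88 in full epithelial cells. Of these arrays only full epithelial replicate 1 lay above the background level. Slc6a14, a broad carrier of neutral and cationic amino acids and 1 of the bright ones, gave 9.53, 10.39 and 9.66 in EpCAM+ plastic cells, against 10.18, 10.17 and 10.11 in full epithelial cells, with overlap (-0.29, adjusted p = 0.515, the brighter of 2 probe sets).

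In the Slc38 family, 7 relatives of Slc38a1 and Slc38a2 were measured, with a median of 0.05. Besides Slc38a7, Slc38a10 separated the groups, at 8.73, 8.77 and 8.70 in EpCAM+ plastic cells, against 7.80, 7.75 and 8.49 in full epithelial cells, without passing the test (0.72, adjusted p = 0.0916). These values are from the brightest of its 8 probe sets, and the others are not given here. Ckmt1, a mitochondrial creatine kinase gene, had a log2 fold change of -2.08 (adjusted p = 0.0805), and Arg1, the arginase gene, -1.38 (adjusted p = 0.168). These genes were singled out after their values were seen.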
